A study of Mus musculus with 2 samples.

Results

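Chromatin accessibility was examined at 10 genes of the Notch pathway in late retinal progenitor cells (RPCs): the receptors Notch1, Notch2 and Notch3, the ligands Dll1, Dll3, Dll4 and Jag1, the DNA-binding effector Rbpj, and the Fringe modifiers Mfng and Lfng. Open intervals were assigned to a gene when their summit, the point of highest signal, lay in the GENCODE mm10 gene body or within 50 kb on either side. The control library had 169 such intervals of 117165 in all, and the library with Ngn3 overexpression (Ngn3-OE) had 166 of 124935. The intervals came from ATAC-seq, in which the Tn5 transposase cuts DNA that is not wrapped in nucleosomes.

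In Notch signalling, a ligand on one cell binds a receptor on its neighbour, the receptor is cut within the membrane, and the freed intracellular part joins Rbpj on DNA to switch on repressors such as Hes1 and Hes5. Those repressors hold down proneural genes, while proneural factors raise the ligands, so that neighbouring cells take different paths. In the retina the pathway is known for keeping progenitors dividing and for favouring Müller glia, and Fringe enzymes modify the receptors with sugars that change which ligands they respond to.

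A plasmid, either a control or one that overexpresses Neurog3 (Ngn3), was electroporated into the retina of mouse pups at postnatal day 1, and both groups carried GFP as the mark of electroporated cells. GFP-positive retinal cells were sorted at day 2 after electroporation, and 50000 cells went into each library. Each group, control and Ngn3-OE, had 1 library. The libraries thus hold only the cells that took up plasmid, and the strain, the number of pups pooled and the promoter of the plasmid are not given in the sources used here. As neither group had a replicate, the condition could not be tested, and every interval given below covers counting error only.

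To describe the sorted cells, intervals within 1 kb of marker start sites were counted. Of all protein-coding genes, 63.6% were open at a start in both libraries, so open starts alone do not set progenitors apart. All 8 progenitor markers counted (among them Pax6, Sox2 and Ccnd1) were open in both libraries, as were 5 of 5 photoreceptor precursor markers and 4 of 4 Müller glia markers. Of the endothelial markers only Kdr was open (1 of 4, 43 tags in control and 28 in Ngn3-OE), of the microglia and blood markers 0 of 4, and of the muscle and liver markers 1 of 4, with 4 and 9 tags. Summed tags were 462 in control and 425 in Ngn3-OE over the progenitor markers, 220 and 313 over the photoreceptor precursor markers, and 225 and 210 over the Müller glia markers. These sums took the highest summit of each marker and were not scaled, unlike the ratios below. The control library had 0 intervals within 10 kb of Neurog3, and the Ngn3-OE library had 1, with 1591 tags at its summit. Tags from the overexpression plasmid and from the gene's own chromatin cannot be told apart here.

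The intervals on which the account below turns are of 2 kinds. The first are the 3 Ngn3-OE-only intervals that held the 10-letter E-box consensus, the site type bound by proneural factors, shown with that match in capitals on either strand. The Dll4 stretch runs past the end of its interval to reach the match.
Notch1 intron (chr2:26486895-26487009, plus strand): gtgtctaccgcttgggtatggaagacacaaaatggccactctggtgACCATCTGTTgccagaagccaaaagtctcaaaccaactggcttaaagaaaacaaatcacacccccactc
Dll1 upstream (chr17:15379009-15379090, plus strand): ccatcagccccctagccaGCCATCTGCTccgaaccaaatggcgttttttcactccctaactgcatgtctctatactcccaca
Dll4 upstream (chr2:119324105-119324190, plus strand): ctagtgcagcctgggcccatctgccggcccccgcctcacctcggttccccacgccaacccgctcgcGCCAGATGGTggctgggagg

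The second are the 3 intervals at Lfng whose summit tags were at least 2-fold lower in Ngn3-OE, shown as the control intervals. Capitals mark SOX-type matches (CCATTGT or CCTTTGT) and the core of the Rbpj site (TGGGAA), again on either strand.
Lfng upstream (chr5:140579872-140580079, plus strand): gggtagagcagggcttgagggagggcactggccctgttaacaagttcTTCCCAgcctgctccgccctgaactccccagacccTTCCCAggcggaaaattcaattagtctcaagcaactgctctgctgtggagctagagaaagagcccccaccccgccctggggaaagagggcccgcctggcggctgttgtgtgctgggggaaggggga
Lfng intron (chr5:140611139-140611429, plus strand): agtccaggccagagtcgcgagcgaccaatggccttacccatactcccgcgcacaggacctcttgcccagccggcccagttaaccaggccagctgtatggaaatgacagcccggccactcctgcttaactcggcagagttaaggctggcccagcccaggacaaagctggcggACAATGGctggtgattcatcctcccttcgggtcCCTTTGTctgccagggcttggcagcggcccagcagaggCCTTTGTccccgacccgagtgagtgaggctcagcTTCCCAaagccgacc
Lfng downstream (chr5:140619566-140619693, plus strand): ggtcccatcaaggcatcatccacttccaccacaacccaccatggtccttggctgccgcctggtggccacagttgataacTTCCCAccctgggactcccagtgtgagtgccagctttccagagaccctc
The upstream and downstream Lfng intervals held the Rbpj core 2 times and 1 time and no SOX-type match, while the intronic interval held 3 SOX-type matches and 1 Rbpj core.

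All 10 genes had an interval within 1 kb of an annotated start site in both libraries, as did 13951 of 21938 protein-coding genes (63.6%). Control had 15 intervals within 1 kb of a start of these genes, and each overlapped an Ngn3-OE interval. Ngn3-OE had 18, of which 3 had no control counterpart, 1 each at Notch2, Dll1 and Rbpj. At least 1 promoter of each of the 10 genes was therefore open in both libraries, and the intervals called in a single library lay mostly away from them.

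Across the windows, 131 intervals of each list overlapped the other list by at least 1 bp. The other 38 control intervals, 22.5% (95% Wilson interval 16.8 to 29.4), had no Ngn3-OE counterpart, against 21.7% over the whole control list. For Ngn3-OE, 35 intervals or 21.1% (15.6 to 27.9) had no control counterpart, against 26.6% over that list. Counting only intervals whose own −log10 q reached 5, 10 of 118 control intervals had no counterpart, beside 7.89% of the list, and 12 of 114 Ngn3-OE intervals had none, beside 10.3% of the list. These shares lay close to the background of each list. Among the 50000 strongest intervals of each list, however, 30.1% of control intervals at the Notch genes had no counterpart (25 of 83) and 17.1% of Ngn3-OE intervals had none (12 of 70), beside 19.8% of both lists. With a −log10 q of at least 5 in both lists, the shares were 22.0% and 19.3%, beside 18.3% and 23.0% of the lists. No counting interval is given for these recounts, and the differences were not tested.

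The intervals without a counterpart were weak. Their summits had a median of 5 tags (control) and 7 tags (Ngn3-OE), while shared intervals had a median of 13 and 14 tags. Tags are the whole-number height of the peak caller's pileup at the summit, solved from the deposited values. The whole lists had a median of 9 tags in both libraries. A missing counterpart at these heights shows that no peak was called, and not that the DNA was closed.

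**Figure D1:**
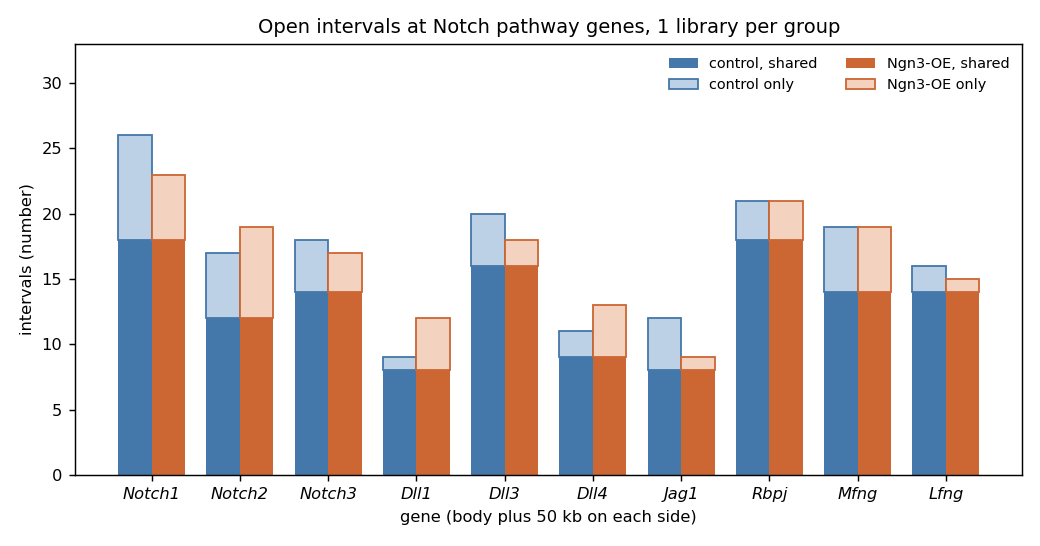
The bars give the number of open intervals (vertical axis) at each gene with 50 kb on either side (horizontal axis), in control and Ngn3-OE, with the part that had no counterpart in the other library in the lighter colour. Notch1 had the most, 26 and 23, and the lighter part was larger in Ngn3-OE than in control at Notch2, Dll1 and Dll4. Over the whole lists, 26.6% of Ngn3-OE and 21.7% of control intervals had no counterpart. With 100 kb on each side, Notch2 had 9 such intervals in control and 8 in Ngn3-OE. With a −log10 q of at least 5 in both lists, Dll4 had 1 and 1.

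To compare heights, control and Ngn3-OE intervals were paired by their largest mutual overlap, and the log2 ratio of summit tags was scaled so that its median over all 54125 pairs with at least 20 tags was 0. Of 131 pairs at the Notch genes, 88 had at least 20 tags over both summits. At least 2-fold higher in Ngn3-OE was 1 pair, 1.14% (0.201 to 6.16), where 3.02% of all pairs were. At least 2-fold lower were 4 pairs, 4.55% (1.78 to 11.1), where 5.6% of all pairs were. The median log2 ratio was −0.05 with quartiles of −0.34 and 0.26, against quartiles of −0.33 and 0.32 over all pairs. Taken over all 10 genes, the heights spread no more widely than those of other pairs.

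Within that spread the genes were placed differently. Median log2 ratios were below 0 for Dll1, Lfng, Jag1, Notch1 and Rbpj, and above 0 for Notch2, Notch3, Mfng, Dll4 and Dll3. Among 11919 protein-coding genes with at least 5 pairs, whose medians had quartiles of −0.14 and 0.11, Dll1 stood at percentile 5.27 and Lfng at percentile 8.37, while Notch2 stood at percentile 86.5. The other 7 genes lay between percentiles 26.3 and 77.3. An accessible site in fewer cells and a site less accessible in each cell cannot be told apart in these sorted populations, and the part of the marker differences given above in the ratios was not tested.

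**Figure D2:**
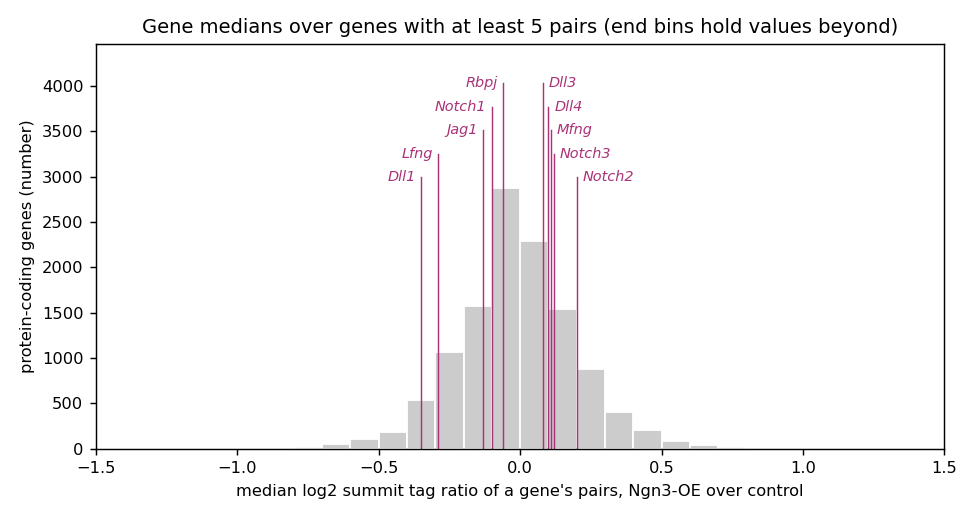
Grey bars count protein-coding genes (vertical axis) by the median log2 ratio of summit tags over their pairs, Ngn3-OE over control (horizontal axis), and lines mark the 10 Notch genes. Dll1 at −0.35 and Lfng at −0.29 lie toward the lower end, and Notch2 at 0.2 lies toward the upper end.

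The 95% interval of the tag ratio lay wholly below 0 for 7 of the 88 pairs and wholly above 0 for 1, where 5.21% and 2.73% of all pairs did. Of the 7 lower pairs, 4 were at Lfng, 2 at Notch1 and 1 at Dll1, and the higher pair was in the window of Mfng. Limits at the Notch genes were read to 2 decimals, so another pair in that window (0.77, 0.0 to 1.57) was not counted. Intervals were also split by the gene they lay closest to, a choice made after the values were seen. Over the 51 pairs in a member's body or nearest to its start, the median was −0.17 and 32 were below 0. Over the 37 pairs nearest to another gene it was 0.12, and 13 were below 0. The pooled median near 0 joins both sets, and the difference between them was not tested.

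**Figure D3:**
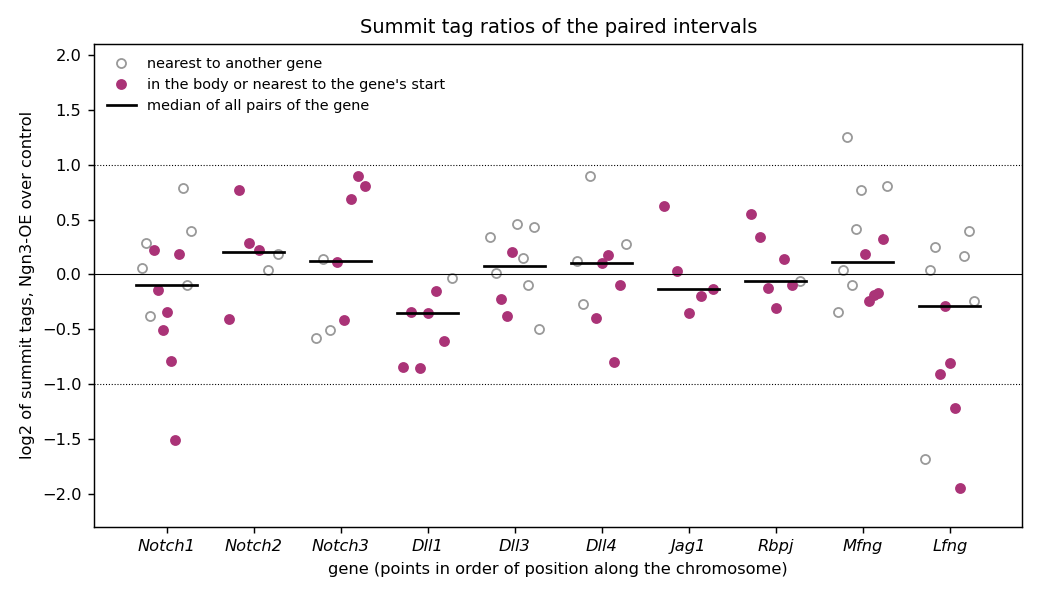
Each point is 1 pair of intervals with at least 20 tags, with the log2 ratio of summit tags, Ngn3-OE over control, on the vertical axis and the gene on the horizontal axis. Filled points lie in the gene or nearest to its start, bars are medians of all pairs, and dotted lines mark the 2-fold limits. The filled points of Dll1 and Lfng are all below 0.

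Notch1 (ENSMUSG00000026923.15, chr2:26457903-26516663, minus strand), the principal receptor of neural progenitors, had 26 control and 23 Ngn3-OE intervals. Its annotated start site, at position 26503822, lies inside this body, and Notch1 distances are measured from it. At that start site the summit held 50 tags in control (Poisson interval 37.1 to 65.9) and 31 in Ngn3-OE (21.1 to 44.0), a log2 ratio of −0.79 (−1.48 to −0.11). The strongest pair of the gene, 2.89 kb downstream of the start site, held 103 and 100 tags, a ratio of −0.14 (−0.55 to 0.27). Between them lay pairs at 1.37 kb, with 26 and 22 tags (−0.34, −1.23 to 0.54), and at 1.94 kb, with 40 and 30 tags (−0.51, −1.25 to 0.20). Of these 4 pairs, all below 0, only the one at the start site had a counting interval that leaves out 0.

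Another Notch1 pair, 29.6 kb upstream of the start site (chr2:26533267-26533619), held 16 control tags and 6 Ngn3-OE tags, a log2 ratio of −1.51 (−3.16 to −0.09). It was 1 of the 4 pairs past 2-fold, and its counting interval nearly reaches 0. Notch1 also had the intervals without a counterpart of the highest −log10 q in either library, the measure by which the strongest such interval of each gene is named here. By tags, Lfng in control (18) and Rbpj in Ngn3-OE (24) had higher ones. In control this was an intronic interval (chr2:26475513-26475698) with 13 tags and a −log10 q of 13.3, and in Ngn3-OE an intronic interval (chr2:26496645-26496741) with 22 tags and a −log10 q of 9.38. Neither held any of the motifs searched, whereas the weaker Ngn3-OE-only interval printed above, with 9 tags and a −log10 q of 3.92, held the E-box.

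Notch2 (ENSMUSG00000027878.11, chr3:98013527-98150361, plus strand), a second receptor of the family, had 17 control and 19 Ngn3-OE intervals. Its start site held 31 tags in control and 25 in Ngn3-OE, a ratio of −0.41 (−1.23 to 0.40). Of 8 intronic pairs, the 3 with at least 20 tags were above 0, with 12 and 22 tags (0.77, −0.3 to 1.92), 39 and 51 tags (0.29, −0.34 to 0.93) and 41 and 51 tags (0.22, −0.41 to 0.84). The weaker 5 lay on both sides of 0, from −1.1 (12 and 6 tags) to 1.12 (3 and 7 tags). All of these ratios had intervals that include 0, so no single Notch2 pair stood apart at this depth. Of the intervals without a counterpart, the strongest in control (chr3:98024669-98024805) had 11 tags, and the strongest in Ngn3-OE (chr3:98046408-98046507) had 13, both in introns. A second Ngn3-OE-only interval (chr3:98013992-98014167) lay 513 bp from the start and had 10 tags.

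Notch3 (ENSMUSG00000038146.8, chr17:32120820-32166852, minus strand), the third receptor, had 18 control and 17 Ngn3-OE intervals. Its promoter was weakly open, with at most 12 tags in control and 7 in Ngn3-OE within 1 kb of the start. Of the 5 pairs in the body, the 3 with at least 20 tags were higher in Ngn3-OE, with 16 and 30 tags over a coding exon (0.81, −0.11 to 1.78), 11 and 19 over a second coding exon (0.69, −0.46 to 1.91) and 7 and 14 in an intron (0.90, −0.5 to 2.45). The other two, both intronic, had 8 and 10 tags (0.22) and, 0.74 kb from the start, 12 and 7 tags (−0.88). Each interval includes 0, and the median of the Notch3 window was −0.31 when pairs with at least 10 tags were counted. Its strongest intervals without a counterpart had 5 tags in control and 6 in Ngn3-OE.

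Dll1 (ENSMUSG00000014773.13, chr17:15367354-15376872, minus strand), a ligand that newly forming neurons present to progenitors, had 9 control and 12 Ngn3-OE intervals. All 7 of its pairs with enough tags were below 0, from −0.85 to −0.03, and the median was −0.35. The intronic pair 3.80 kb from the start (chr17:15371962-15372272) had 59 tags in control (44.9 to 76.1) and 35 in Ngn3-OE (24.4 to 48.7), a ratio of −0.85 (−1.5 to −0.23). The start site had 25 and 21 tags, a ratio of −0.35 (−1.26 to 0.54). The strongest pair of the window, 32.8 kb downstream and with the E-box in both libraries, had 73 and 62 tags, a ratio of −0.34 (−0.85 to 0.17). Only the intronic pair had an interval that leaves out 0.

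Dll1 had 4 Ngn3-OE-only intervals and 1 control-only interval. This direction did not hold under stricter limits: with a −log10 q of at least 5 required in both lists the counts were 2 and 2, and among the 50000 strongest intervals of each list they turned to 0 Ngn3-OE-only and 2 control-only. The strongest of the 4 (chr17:15375562-15375718) lay in an untranslated exon 321 bp from the start, with 19 tags (11.4 to 29.7) and a −log10 q of 8.82. The second (chr17:15379009-15379090) lay 3071 bp upstream, inside a noncoding gene, A930024N18Rik, with 16 tags (9.15 to 26.0) and a −log10 q of 6.53, and is the Dll1 sequence with the E-box printed above. The control-only interval (chr17:15328465-15328614) lay 47.4 kb from the start and had 7 tags.

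Dll3 (ENSMUSG00000003436.11, chr7:28293553-28302238, minus strand), a divergent ligand that acts within the cell, had 20 control and 18 Ngn3-OE intervals in a window with 6 other protein-coding starts. Its start site, which held the E-box in both libraries, had 22 tags in control and 27 in Ngn3-OE, a ratio of 0.20 (−0.67 to 1.08). A weaker pair 392 bp from the start (chr7:28301797-28301885) had 8 and 7 tags. The intronic pair had 28 and 23 tags, a ratio of −0.38 (−1.25 to 0.46). Dll3 thus differed by less than counting error at its own sites. Its strongest control-only interval (chr7:28290283-28290363) had 13 tags and lay 873 bp from the start of Selenov, and its strongest Ngn3-OE-only interval (chr7:28299111-28299178) had 9 tags in an intron.

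Dll4 (ENSMUSG00000027314.6, chr2:119325784-119335962, plus strand), a ligand of retinal progenitors and of vessels, had 11 control and 13 Ngn3-OE intervals. Its start site had 38 tags in control and 46 in Ngn3-OE, a ratio of 0.18 (−0.48 to 0.84). The pair 3.04 kb upstream had 27 and 31 tags, a ratio of 0.10 (−0.69 to 0.90). The Ngn3-OE-only interval with the E-box lay between them, 1674 bp upstream, with 9 tags and a −log10 q of 1.49, which is at rank percentile 0.811 of its list. The strongest without a counterpart were a control-only interval (chr2:119304644-119304762) with 12 tags, nearest to Vps18, and an Ngn3-OE-only interval (chr2:119332546-119332634) over a coding exon with 6 tags. The largest Dll4 ratio was that of a pair 20.9 kb upstream and nearest to Vps18, with 11 and 22 tags (0.90, −0.21 to 2.09). It stayed under 2-fold, but reached it without scaling or with scaling by the background.

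Jag1 (ENSMUSG00000027276.7, chr2:137081456-137116644, minus strand), the ligand of the Serrate type, had 12 control and 9 Ngn3-OE intervals, with no other protein-coding start in its window. Its 2 start-site pairs had 60 and 56 tags (−0.20, −0.75 to 0.35) and 45 and 44 tags (−0.13, −0.77 to 0.5). These promoter heights were nearly the same in both libraries. Without a counterpart were 4 control intervals and 1 Ngn3-OE interval. The strongest of each were neighbours, the control one (chr2:137063999-137064143) with 9 tags and the Ngn3-OE one (chr2:137063814-137063962) with 6, set apart by 36 bp. Their summits lay 201 bp apart, so that neither overlap nor a summit within 100 bp joined them.

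Rbpj (ENSMUSG00000039191.12, chr5:53466152-53657362, plus strand), through which all receptors act on DNA, had 21 intervals in each library and 3 of each without a counterpart. The pairs at its start sites had 81 tags in control and 70 in Ngn3-OE (−0.31, −0.79 to 0.17), 92 and 91 tags (−0.12, −0.55 to 0.32) and 22 and 26 tags (0.14, −0.73 to 1.03). The strongest Ngn3-OE-only interval (chr5:53591184-53591242) lay among them, 230 bp from a start, with 24 tags and a −log10 q of 6.33. The strongest control-only interval (chr5:53600199-53600269) had 5 tags in an intron. All 7 Rbpj ratios with at least 20 tags lay between −0.31 and 0.55, each with an interval that includes 0. A further Rbpj start, at position 53555834, had no interval within 1 kb in either library.

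Mfng (ENSMUSG00000018169.12, chr15:78755882-78773475, minus strand), manic fringe, had 19 intervals in each library. Its start site had 65 tags in control and 62 in Ngn3-OE, a ratio of −0.17 (−0.69 to 0.36). An intronic pair with the E-box 10.1 kb from the start had 36 and 44 tags, a ratio of 0.19 (−0.48 to 0.87). The sole pair past 2-fold in the higher direction lay in this window (chr15:78731929-78732072), 41.5 kb downstream and nearest to Elfn2, with 11 tags in control (5.49 to 19.7) and 28 in Ngn3-OE (18.6 to 40.5), a ratio of 1.25 (0.2 to 2.4). It held none of the motifs searched. A further pair nearest to Elfn2 (chr15:78742916-78743187), 30.4 kb downstream, had 23 and 42 tags, a ratio of 0.77 (0.0 to 1.57). Mfng's own sites therefore differed by less than counting error, and the higher values lay at intervals nearest to the start of its neighbour. Its strongest intervals without a counterpart had 5 tags in control and 7 in Ngn3-OE.

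Lfng (ENSMUSG00000029570.5, chr5:140607320-140615545, plus strand), lunatic fringe, had 16 control and 15 Ngn3-OE intervals and 3 of the 4 pairs that were at least 2-fold lower. The intronic pair 3.92 kb from the start had 37 tags in control (26.1 to 51.0) and 17 in Ngn3-OE (9.9 to 27.2), a ratio of −1.22 (−2.14 to −0.36). The downstream pair at 12.3 kb had 18 tags (10.7 to 28.4) and 5 tags (1.62 to 11.7), a ratio of −1.95 (−3.73 to −0.46). The upstream pair at 27.4 kb, nearest to the start of Grifin, had 27 tags (17.8 to 39.3) and 9 tags (4.12 to 17.1), a ratio of −1.68 (−2.96 to −0.55). In ranks by −log10 q within each list, the upstream pair stood at percentile 81.5 in control and 31.8 in Ngn3-OE.

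The Lfng start site had 41 tags in control (29.4 to 55.6) and 25 in Ngn3-OE (16.2 to 36.9), a ratio of −0.81 (−1.59 to −0.06). All 5 pairs with at least 20 tags in the body or nearest to the start were below 0, with a median of −0.91. Of 5 pairs nearest to Ttyh3, a neighbouring gene, the 3 with at least 20 tags had 94 and 113 tags (0.17, −0.24 to 0.58), 12 and 17 tags (0.40, −0.75 to 1.6) and 11 and 10 tags (−0.24, −1.63 to 1.14). The weaker ones had 5 and 6 tags (0.16) and 10 and 8 tags (−0.42). Apart from the upstream pair nearest to Grifin, the lower heights thus stood at the promoter, intron and nearby sites of Lfng. The strongest control-only interval (chr5:140608828-140609015) was also intronic, with 18 tags, and the strongest Ngn3-OE-only interval (chr5:140565552-140565678) had 9 tags and lay 544 bp from the start of Grifin.

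**Figure D4:**
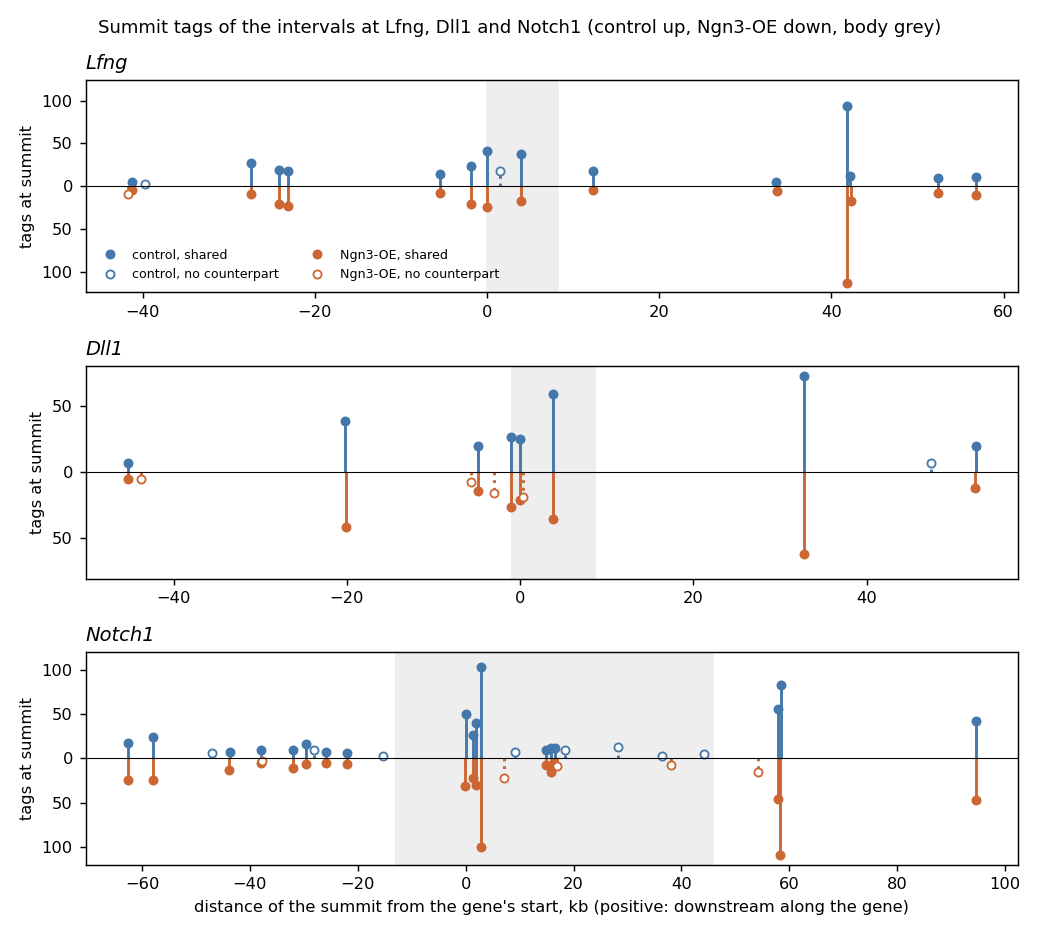
Stems give the tags at each summit (vertical axis, control upward and Ngn3-OE downward) by distance from the gene's start in kb (horizontal axis) at Lfng, Dll1 and Notch1, with the gene body in grey and open points for intervals without a counterpart. At Lfng the control stem is longer at the start (41 against 25 tags) and in the intron (37 against 17), and at Dll1 open Ngn3-OE points stand beside the start.

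By role, the 27 receptor pairs had a median log2 ratio of 0.11, the 31 ligand pairs −0.10, the 7 Rbpj pairs −0.06 and the 23 Fringe pairs −0.10. Of the 12 start-site pairs with enough tags 9 were below 0, with a median of −0.18. Over all 17813 pairs within 1 kb of a protein-coding start the median was −0.05, and 56.1% were below 0. Genes of 1 role could lie on opposite sides of 0, as the medians of Mfng and Lfng, or of Dll1 and Dll4, did.

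Motifs were counted on both strands within 100 bp of the summit. The 10-letter E-box was in 10 of 169 control intervals, 5.92% (3.25 to 10.5), and in 12 of 166 Ngn3-OE intervals, 7.23% (4.18 to 12.2), beside 3.65% and 4.27% of the lists. Among intervals without a counterpart it was in 3 of 35 for Ngn3-OE, 8.57% (2.96 to 22.4), beside 4.66% of such intervals in the list, and in 0 of 38 for control, which allows a share of up to 7.89% if a count of 0 is read as at most 3 (the Wilson limit is 9.18%), beside 2.14%. The E-box core CATCTG, which the longer consensus contains, was in 20.1% and 24.1% of intervals, beside 21.3% and 22.6% of the lists. Within 100 bp, the shares at the Notch genes had counting intervals that include or nearly include those of the lists. The median GC content of these windows was 57.7% and 58.7%, above the 51.7% of both lists. Within 50 bp, the 10-letter E-box was in 5.33% of control and 6.63% of Ngn3-OE intervals, beside 2.59% and 3.05% of the lists. Over whole intervals it was in 5.92% and 7.23%, beside 3.4% and 3.93%.

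The SOX type, the kind of site bound by progenitor factors such as Sox2, was in 10.7% of control and 10.8% of Ngn3-OE intervals, beside 8.8% and 7.41% of the lists. The Rbpj core was in 20.7% and 23.5%, beside 18.0% and 17.7%. Within 50 bp of the summit, the SOX type in Ngn3-OE (3.61% beside 3.75%) and the Rbpj core in control (8.28% beside 8.96%) were below their lists. The SOX type in control (5.92% beside 4.85%) and the Rbpj core in Ngn3-OE (10.8% beside 8.63%) were above them. Over whole intervals, the SOX type was in 10.1% of control and 8.43% of Ngn3-OE intervals, beside 7.17% and 5.65%. There the Rbpj core was in 20.7% and 20.5%, beside 13.7% and 13.1%. By motif, the 8 pairs with the 10-letter E-box had a median log2 ratio of 0.12 and 3 were below 0, beside a median of 0.20 and 34.1% below 0 over all 2319 such pairs. The 10 pairs with a SOX-type match had a median of −0.34 and 8 were below 0, beside a median of −0.16 and 60.2% below 0 over all 4497. The medians of both sets thus lay on the same side of 0 at the Notch genes as across the genome, while single pairs lay on either side.

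The rest of the pathway was taken as 37 further genes, from the cleavage enzymes to the Hes and Hey targets. They had 572 control and 618 Ngn3-OE intervals, of which 20.3% and 25.4% had no counterpart, beside 21.7% and 26.6% of the lists. All but Notch4 had an interval within 1 kb of a start in both libraries. Of their 324 pairs with enough tags, 10 (3.09%) were at least 2-fold higher, beside 3.02% of all pairs, and 13 (4.01%) at least 2-fold lower, beside 5.6%. Gene medians were above 0 for 17 genes, below 0 for 18 and at 0, to 2 decimals, for 1 (Aph1a). The highest medians among genes with at least 5 pairs were those of Dlk1 (0.49) and Dner (0.44), both noncanonical ligands, and of Pofut1 (0.29), which adds fucose to the receptors. The lowest were those of Fbxw7 (−0.59), which marks the active receptor for destruction, Spen (−0.44), a corepressor that works with Rbpj, and Dtx1 (−0.36), a ubiquitin ligase of the receptors. Hes1 had the same median of −0.36 to 2 decimals, with Dtx1 lower before rounding. The shares of the wider pathway thus lay near those of all intervals and pairs.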

How the data were processed

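ATAC-seq was made from 1 control and 1 Ngn3-OE library. Per the labels and the study's methods, the authors trimmed reads with Trimmomatic, aligned them to mm10 with Bowtie2, removed PCR copies (Picard), mitochondrial reads (SAMtools) and blacklisted regions (bedtools), kept fragments up to 120 bp, shifted read ends by 4 and 5 bp (deepTools) and called peaks in each library with MACS2 at a q-value of 0.05. Short fragments describe nucleosome-free DNA only. The deposited lists hold a score, the fold enrichment ratio at the summit, the −log10 p-value and q-value, and the summit offset. The depth of each library is not given in the sources used here.

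Lines with equal intervals were merged, keeping the summit with the highest −log10 q, on 21 chromosomes. Of 128853 lines for control, 159 lay elsewhere, and of 136761 for Ngn3-OE, 150 did. Tags at each summit were solved from the deposited fold and −log10 p (largest residual 0.00068 and 0.0019), with a procedure tested on simulated data. Pairs across the lists were joined by reciprocal largest overlap, and the unscaled median log2 ratio over all pairs was 0.1. The lowest background was 0.2615 tags in control and 0.2571 in Ngn3-OE. Shares have 95% Wilson intervals, tags exact Poisson intervals and tag ratios exact binomial intervals, for counting error only.

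Start sites and gene bodies came from GENCODE M21 basic and sequence from RefSeq's GRCm38.p6, the same build as mm10. Distances from a gene, also those given as upstream or downstream, run to its nearest annotated start site. For each gene the start-site intervals, the pairs past 2-fold and the strongest interval without a counterpart in each list are named. The other pathway genes named are the 3 with the highest and the 3 with the lowest median. Calculations used Python 3.11.15, NumPy 2.4.6, pandas 2.3.3, SciPy 1.17.1 and pysam 0.24.0. Of the progenitor markers listed, 1 is not reported here. The genes, lists and tests were chosen with earlier results of these data known. Alternatives changed the flank, q threshold, list length, overlap, scaling, tag minimum, fold, ranking and motif window.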

Additional observations from a re-analysis of the deposited data

How the results depend on the processing

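The interval counts followed the window: 60 control and 62 Ngn3-OE intervals in gene bodies only, 92 and 95 with 10 kb on each side, 263 and 253 with 100 kb, 83 and 70 among the top 50000 of each list, and 99 and 99 when only intervals in the body or nearest to the start were kept, a choice made after seeing the data. The share without a counterpart was 30.1% for control (25 of 83) and 17.1% for Ngn3-OE (12 of 70) among the top 50000, beside 19.8% of both lists, and 8.47% for control and 10.5% for Ngn3-OE with a −log10 q of at least 5 in the queried list.

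Pairs at least 2-fold higher numbered 0 of 28 in gene bodies, 0 of 49 with 10 kb (3.02% of all pairs for both), 3 of 88 with scaling by background (5.03% of all pairs), 3 of 88 with no scaling (5.02%), 2 of 125 with at least 10 tags (4.38%), 0 of 51 with at least 40 tags (1.49%) and 0 of 51 among own intervals (3.02%). Pairs at least 2-fold lower numbered 1 of 28 in gene bodies, 2 of 49 with 10 kb (5.6% for both), 1 of 81 when both lists were limited to a −log10 q of 5 (4.59%), 0 of 58 among the top 50000 (2.38%), 9 of 125 with at least 10 tags (5.84% of all pairs) and 1 of 51 with at least 40 tags (3.2%). A fold of 1.5 gave 10 higher and 11 lower of 88, beside 12.6% and 13.5% of all pairs. The median log2 ratio was −0.17 over own intervals. With 50 bp on each side of the summit, shares were 5.92% (control, list 4.85%) and 3.61% (Ngn3-OE, list 3.75%) for the SOX type, 8.28% (list 8.96%) and 10.8% (list 8.63%) for the Rbpj core, and 18.1% (list 14.4%) for the E-box core in Ngn3-OE, as shorter windows hold fewer matches. Of 82 recounts, 34 moved, by over 1.5 times for counts or past the 95% interval for shares and medians. Of 60 recounts of the intervals without a counterpart at single genes, such as the 4 and 1 at Dll1, 39 moved by over 1.5 times.

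The median log2 ratio kept its sign in all 11 settings that can change it for Dll1 (−0.6 to −0.23), Lfng (−1.02 to −0.1) and Notch2 (0.07 to 0.32), and changed sign in at least 1 setting for each of the other 7 genes. No paired analysis was possible because each group had 1 library, and for the same reason no replicate could be left out. The depth limits most pairs: at the median of 11 tags per summit in these windows, a doubling lies within counting error, as for the Dll4 pair with 11 and 22 tags (log2 0.90, −0.21 to 2.09).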
